A study of Mus musculus with 21 samples.

Results

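The comparison described here set lymph node plasma cells from day 10 of a primary response against those from days 16 and 22. The members were the 234 cells that the authors' annotation named PC among the 436 cells of the sorted plasma cell fraction, of 6619 cells in the data set. A further 8 cells named PC lay in the non-PC fraction and entered only as an alternative. All mice received 100 µg of NP-KLH, a hapten coupled to a carrier protein, in SAS adjuvant under the skin at the tail base, and 1 gavage of 5 mg tamoxifen on day 6 or later, which switched on a Cre-ERT2 label. IgD-negative, eYFP-positive cells of the draining lymph nodes were sorted, so the cells are those that took the label. Later mice thus had a longer time after immunisation, and the label's timing beyond day 6 was not given. The Cre driver, the strain and the age of the mice were not given in the sources used here. There were 2 mice for each of the days 10, 16 and 22. Cells of the 6 mice carried a hashtag each and were captured together, so day was not split by capture.

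Plasma cells are the antibody-secreting end stage of the B cell lineage. Some leave the germinal centre, the lymph node structure in which receptor genes of B cells are mutated and the best binders kept, while they still divide. They carry large amounts of immunoglobulin RNA, an enlarged secretory apparatus and the transcription factors Blimp-1 (gene Prdm1), Xbp1 and Irf4. Type I and II interferons act on B lineage cells through surface receptors and switch on a shared set of antiviral genes.

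The members were unevenly spread over the mice: 18 and 125 cells on day 10, 11 and 27 on day 16, and 41 and 12 on day 22. With immunoglobulin genes the summed counts of unique molecular identifiers (UMIs, counted RNA molecules) ran from 152974 in day 16 mouse 1 to 2534343 in day 10 mouse 2. Day 10 thus had 143 cells, most of them from 1 mouse, and the later period 91. The label fitted its markers. Xbp1, Jchain (the joining chain of polymeric antibody) and Mzb1 (a secretory chaperone partner) had a UMI in all 234 cells, Slamf7 in 96.6% and Sdc1 (CD138) in 54.3%. The germinal centre regulator Bcl6 was seen in 0.855% and the B cell factor Pax5 in 1.28%, while Ms4a1 (CD20) was still seen in 62.8%. The authors' plasma cell module score had a median of 0.806 and 0.793 on day 10, against 0.761, 0.696, 0.755 and 0.771 later, so that both day 10 mice lay highest. Between the 2 wells, 6 barcodes were shared, 1 of them with a member.

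Markers of other cell types were low. Of 9 T cell markers, Cd3d, Cd3e, Trbc2, Cd4 and Cd8a were at 0, while Cd3g, Trac, Lck and Lat had UMIs, and the list summed to 0 and 6.62 CPM (UMIs scaled to a total of 1000000 for each mouse, immunoglobulin left out) on day 10 and to 18.3, 10.6, 6.48 and 0 later. At 0 were also both measured haemoglobin genes and 3 of 4 natural killer cell markers. The 8 measured myeloid markers summed to 8.25 and 33.1 CPM in the early mice and to 128, 42.4, 25.9 and 63.7 in the later mice, with Csf1r at 0. The highest sum was that of day 16 mouse 1. In all, 18 members held at least 3 UMIs of such markers. Of these, 3 were in day 16 mouse 1, which without them fell below the 10 cells required for a sum. Fits without the 18 cells therefore lacked that mouse as well.

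The question of the comparison was which transcripts distinguish plasma cells early and late in the response. Raw counts without 254 immunoglobulin genes were summed per mouse, and the 2 day 10 mice were tested against the 4 later mice. No gene passed. Of 3817 genes tested with edgeR's quasi-likelihood test, 0 were called at an adjusted p of 0.05 (0.0%), 71 had an unadjusted p under 0.05 (1.86%), and DESeq2's own test called 1, Plac8. Of the 71, 46 were higher on day 10 (1.21%) and 25 were higher later (0.655%). The precision was limited: the median standard error (SE) of a log2 difference was 0.31, and the median 95% interval reached 0.68 to either side. In 5652 germinal centre cells of the same mice the median SE was 0.12, and 367 of 10234 genes were called (3.59%), 201 higher on day 10 (1.96%) and 166 lower (1.62%). Without day 10 mouse 2, 105 were called in place of 367. When the germinal centre sums were thinned to the UMI totals of the plasma cell sums, 38 of 4400 were called. The genes named below are therefore given by their values and were not called as changed, unless stated otherwise.

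The gene with the lowest p was Plac8 (chr5:100553725-100572245, minus strand, GRCm38), a small cysteine-rich protein of leukocytes. Scaled to the common library size of the fit, it stood at 257 and 233 CPM on day 10, at 0 and 42.4 on day 16, and at 72.8 and 66.9 on day 22. Both day 10 mice lay above all later mice. The mean was 245 ± 16.5 (SD, n = 2) against 45.5 ± 33.1 (SD, n = 4), a log2 difference of 2.17 ± 0.37 (SE) with an adjusted p of 0.292 by edgeR. The 0 in day 16 mouse 1 rests on 11 cells, where 3 counts would be 27.4 CPM. In day 10 mouse 1, however, 56 of 59 Plac8 UMIs came from 1 S phase cell with 46824 UMIs in all, and only 3 of 18 cells had any, whereas 40 of 125 cells had one in day 10 mouse 2. With the highest cell of each mouse left out the log2 difference was 1.64. In the fit without the 18 cells holding markers of other cell types, which also lacked day 16 mouse 1, it was 1.17. Across 18 alternatives Plac8 was called in 5, among them the fit without day 16 mouse 1 (2.00, adjusted p 0.00802) and day 10 against day 22 only (1.76, adjusted p 0.0236). Another was the fit with thinned cells (2.17, adjusted p 0.0452 by edgeR), where day 16 mouse 1 kept 7 cells and was left out. All of these lacked the mouse at 0 CPM, while DESeq2's test and the fit without a low-count filter held all mice.

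**Figure D1:**
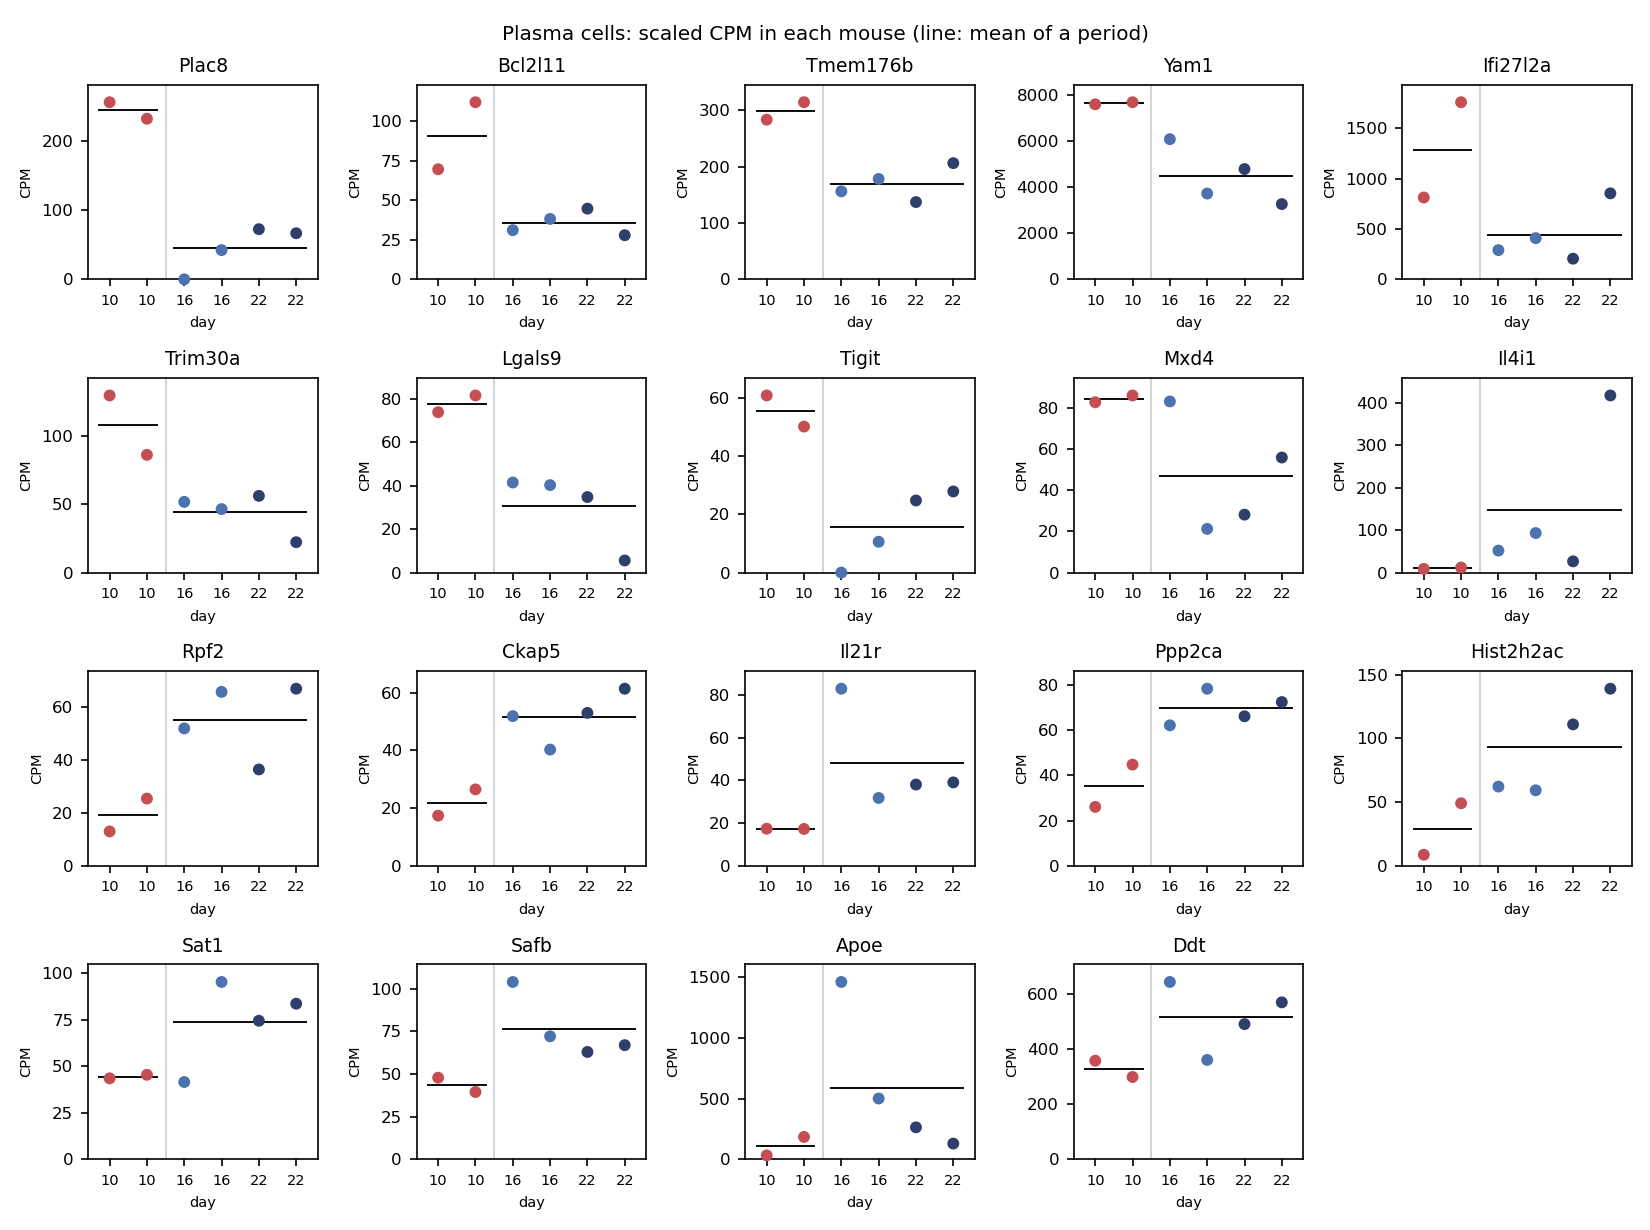
Scaled CPM of 9 named genes higher on day 10 and 10 higher later in plasma cells (y axis, linear from 0), 1 point for each mouse by day (x axis), red for day 10 and blue for days 16 and 22, with the mean of each period as a line. Plac8 stands at 257 and 233 on day 10 and at most at 72.8 later, while the later mean of Il4i1 is raised by 1 day 22 mouse at 418 and that of Apoe by 1 day 16 mouse at 1462.

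Among the lists, the interferon response held the most genes with a low p, all of them higher on day 10. Its 34 listed genes include sensors, transcription factors and effectors, of which 30 were in the matrix and 17 were abundant enough to test in plasma cells. All 17 had a log2 difference above 0, against 48.5% of all genes tested. An unadjusted p under 0.05 in this direction was found for 8 of 17, against 1.21% of all genes, and 3 of 17 had no overlap between the periods, against 4.35%. None was called. The median log2 difference was 0.75, beside -0.01 for all genes tested. Summed over the 30 genes, without the scaling of the fit, the level was 3324 and 4919 CPM on day 10, against 2199, 1657, 2513 and 2595 later. Neither day 10 mouse overlapped the later mice, and day 10 mouse 2 was the highest. Without that mouse 11 of 14 tested genes lay above 0, 1 had an unadjusted p under 0.05, and the median was 0.53. Against day 22 alone the median was 0.48 over 16 genes, and against day 16 alone 1.19 over 16.

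Trim30a, an interferon-induced ubiquitin ligase family member, stood at 130 and 86.4 CPM on day 10, and at 51.9, 46.6, 56.3 and 22.3 later, without overlap (log2 1.12 ± 0.32). Bst2 (tetherin), which holds budding virus at the cell surface, stood at 587 and 810 CPM on day 10, and at 332, 246, 593 and 346 later, so that day 22 mouse 1 reached the lower day 10 mouse (log2 0.87 ± 0.30).

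Ifi27l2a (chr12:103442167-103443680), a small interferon-induced membrane protein, stood at 813 and 1759 CPM on day 10, 290 and 409 on day 16, and 205 and 854 on day 22. The value of day 22 mouse 2 overlapped day 10, and 116 of its 153 UMIs came from 1 cell. The log2 difference was 1.59 ± 0.44 over all cells and 2.32 with the highest cell of each mouse left out, where it was called (adjusted p 0.0089 by edgeR). Isg15 (chr4:156199424-156200818), a ubiquitin-like modifier, was singled out after its values were seen. It stood at 265 and 416 CPM on day 10, 31.1 and 31.8 on day 16, and 91.0 and 391 on day 22, and in day 22 mouse 2 another single cell held 68 of the 70 UMIs. Its log2 difference was 1.49 ± 0.64, and 3.18 without the highest cells (adjusted p 0.0089). This removal took 1 cell from mice of 11 to 125 cells, so it weighed more on mice with few cells. For Isg15 it took 68 of 70 UMIs in day 22 mouse 2 and 57 of 770 in day 10 mouse 2. It was added after the data were seen, so the calls for Ifi27l2a and Isg15 are given as values only. A UMI of Isg15 was found in 50.0% and 56.8% of cells on day 10 and in 18.2%, 29.6%, 34.1% and 25% later. After thinning each cell to 11035 UMIs, which left out 24 shallower cells, the shares were 53.3% and 48.7% on day 10 and 0%, 20.8%, 24.3% and 16.7% later, where day 16 mouse 1 kept 7 cells. Among germinal centre cells of the same well 11.6% had a UMI after thinning. Both day 10 mice lay above all later mice on either measure.

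**Figure D2:**
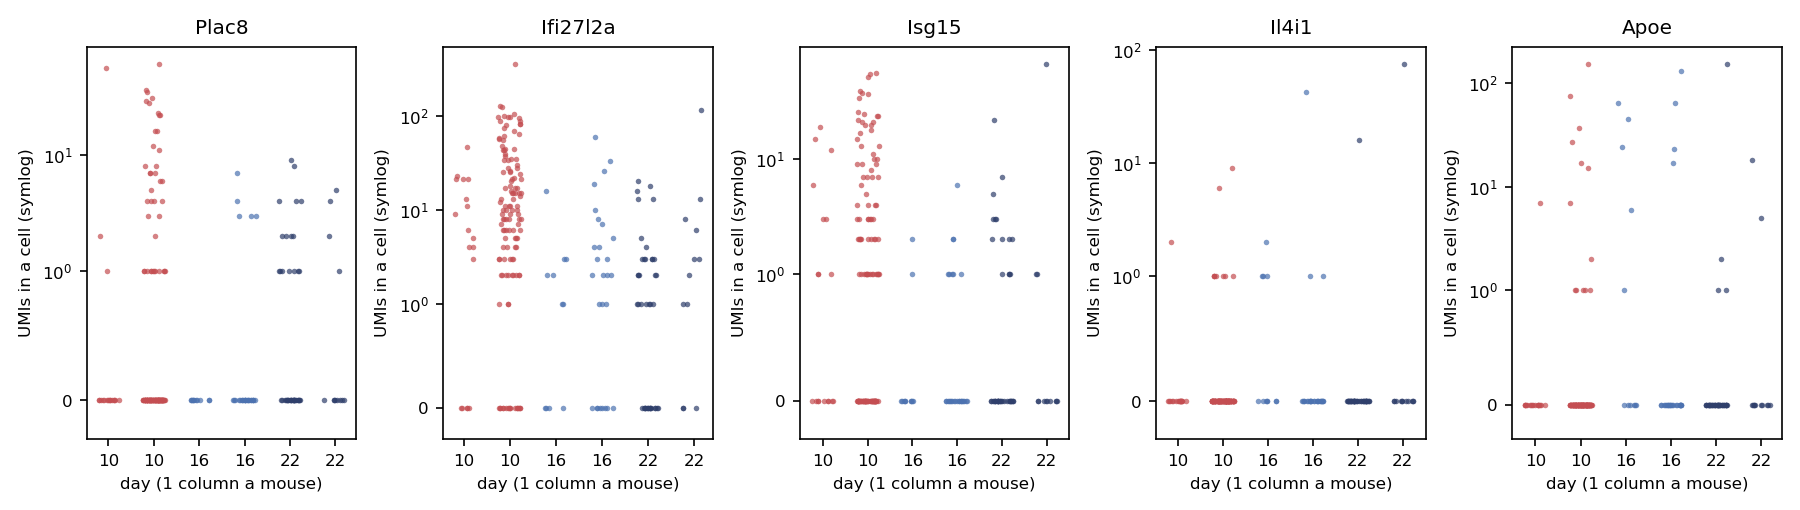
UMIs of 5 genes in each plasma cell (y axis, linear up to 1 and logarithmic above), 1 column of points for each mouse by day (x axis). Plac8, Ifi27l2a and Isg15 are spread over many cells in the second day 10 mouse, whereas in the second day 22 mouse single cells with 116 Ifi27l2a, 68 Isg15 and 75 Il4i1 UMIs hold most of the molecules.

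The same direction was measured in the germinal centre cells of the same mice, where the test had more reach. There 23 of 25 tested interferon genes were called higher on day 10 (1.96% of all genes were called in this direction), with a median log2 difference of 1.05. Without day 10 mouse 2 it was 13 of 24 (median 0.84), beside 105 of 10448 genes called in either direction. With sums thinned to the plasma cell totals it was 3 of 10 (median 0.71), beside 38 of 4400. Their summed level was 1356 and 1832 CPM early against 950, 905, 958 and 954 later. Ifi27l2a had a log2 difference of 1.40 ± 0.12 there (adjusted p 5.57e-06 by edgeR), Bst2 0.95 ± 0.08, Trim30a 0.93 ± 0.12, and Isg15 1.03 ± 0.20. A test of the difference between both populations, with the mouse as a block, called none of these 4 (adjusted p 1.0 for each). The list's sum was higher in plasma cells than in germinal centre cells in each of the 6 mice.

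The start sites of some of these genes show the sequence such a response is known to use. The interferon-stimulated response element is bound by interferon regulatory factors. It was searched as 2 copies of GAAA with 2 bases of any kind between them, on both strands, in RefSeq windows of 250 bases before to 50 bases after each gene start (GRCm38.p6). Of the 28 interferon list genes with a window, 17 (60.7%) held a match, beside 3.99% of 27025 genes with a window. The list is made of known interferon genes, so this share does not bear on the difference between days. Of the 13 list genes with a window that were tested in plasma cells, 6 held a match (46.2%). Among the 8 list genes with an unadjusted p under 0.05 in plasma cells, 5 had a window, and 3 of these held a match: Bst2, Isg15 and Trim30a. Their matches are printed below with 25 flanking bases to either side, the match in capitals, on the strand of the gene (minus for all 3). The capitals of Isg15 hold 3 overlapping matches and those of Bst2 hold 2. That of Trim30a reads as the motif on the opposite strand. These are matches of letters and were not measured as binding sites here.
Isg15, chr4:156200850-156200921, match 78 to 56 bases before the gene start: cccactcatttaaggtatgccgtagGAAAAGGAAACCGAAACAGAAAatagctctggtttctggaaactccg
Bst2, chr8:71537562-71537627, match 130 to 114 bases before the gene start: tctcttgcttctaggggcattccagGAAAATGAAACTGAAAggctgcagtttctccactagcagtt
Trim30a, chr7:104465195-104465254, match 36 to 26 bases before the gene start: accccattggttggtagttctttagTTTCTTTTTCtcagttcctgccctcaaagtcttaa

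**Figure D3:**
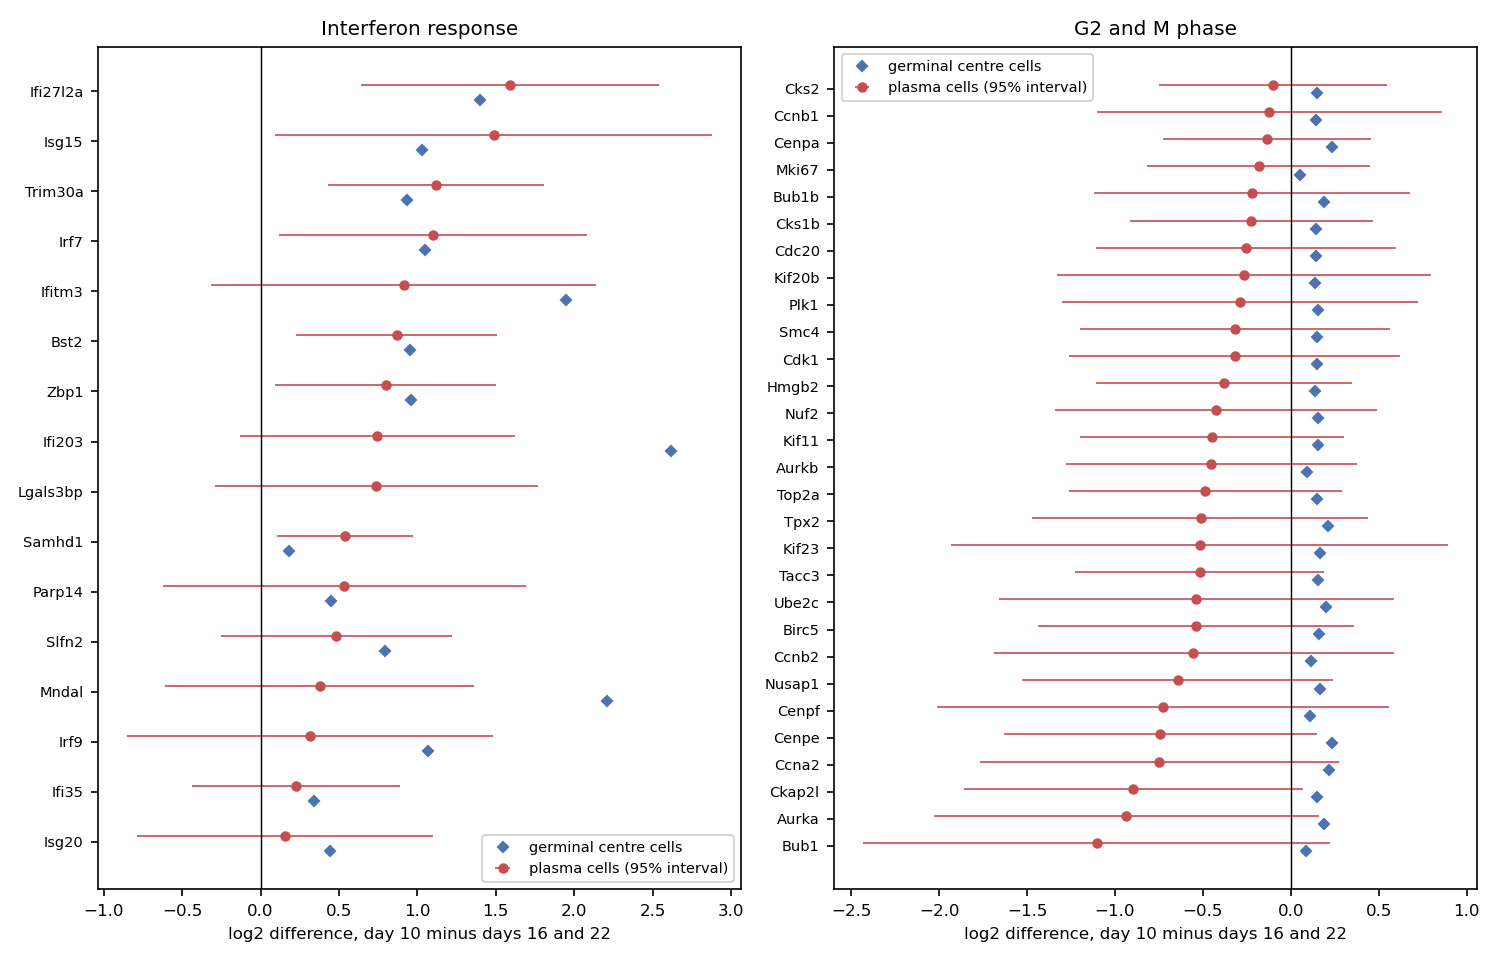
Log2 difference, day 10 minus days 16 and 22 (x axis), of tested genes of the interferon response list and of the G2 and M phase list (y axis), red points with 95% intervals for plasma cells and blue diamonds for germinal centre cells. The 16 interferon genes drawn lie above 0 in plasma cells with intervals that often span 0, and all 29 G2 and M genes lie below 0, whereas most G2 and M genes lie slightly above 0 in germinal centre cells.

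The cell cycle mix of the plasma cells differed between mice more than between periods. In the authors' phase calls, G1 cells made up 61.1% and 55.2% of the plasma cells on day 10, 90.9% and 44.4% on day 16, and 36.6% and 16.7% on day 22. G2M cells made up 11.1% and 20.0%, then 0% and 22.2%, then 36.6% and 50.0%. The day 16 mouse without G2M cells had 11 cells, and its 95% Wilson interval reached 25.9%. Both day 22 mice had more G2M and fewer G1 cells than both day 10 mice, while the day 16 mice lay to either side. The G2M share was 15.6% ± 6.29 (SD, n = 2) on day 10 and 27.2% ± 21.4 (SD, n = 4) later, with an exact permutation p of 0.467 (2-sided). For G1 the exact permutation p was 0.667, and for S 0.933, all 0.933 after adjustment over the 3 phases. The smallest p that 2 against 4 mice allow is 0.0667, so no share could pass 0.05. After thinning, 91.7% to 100% of the plasma cells of each mouse still had at least 3 UMIs of the listed S and G2M genes, so that this count did not separate phases.

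Genes of mitosis lay lower on day 10 without passing a test. None of 29 tested genes of the G2 and M phase list had a log2 difference above 0 in plasma cells, and the median was -0.45, but 0 had an unadjusted p under 0.05 and 0 lacked overlap. Summed over the list, the level was 3593 and 4342 CPM on day 10, 1570 and 5382 on day 16, and 6156 and 7849 on day 22. The day 22 mice were the highest and day 16 mouse 1, the mouse with 0% G2M cells, the lowest. The mitotic kinase Aurka stood at 4.35 and 45.4 CPM on day 10, 10.4 and 63.6 on day 16, and 72.8 and 100.0 on day 22 (log2 -0.93 ± 0.50). Ckap2l, a spindle protein, had a log2 difference of -0.90 ± 0.44, the checkpoint kinase Bub1 -1.10 ± 0.61 and the centromere motor Cenpe -0.74 ± 0.41. With the share of cells outside G1 as a covariate the list's median was 0.15, with 20 of 29 genes above 0. Against day 16 alone it was 0.14, and against day 22 alone -0.76, where 22 of 30 genes had an unadjusted p under 0.05, against 2.65% of all genes higher on day 22 at that level, and 0 were called. In the fit without the 18 cells holding markers of other cell types, which also lacked day 16 mouse 1, it was -0.81. There 18 of 30 were at that level, against 3.14% of all genes in this direction, and 0 were called. Without day 16 mouse 1 alone the median was -0.56. In germinal centre cells the list had a median of 0.15, and 4 of 32 genes were called higher on day 10, against 1.96% of all genes. That number was 0 without day 10 mouse 2, day 16 mouse 1 or day 22 mouse 2, 1 without day 10 mouse 1, 2 without day 22 mouse 1 and 8 without day 16 mouse 2. Over all genes, 105 to 482 were called in either direction with 1 mouse left out. The G1 share of germinal centre cells was 41.4% and 39.9% on day 10 and 45.9% to 50.9% later.

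The direction of replication genes depended on which cells and mice entered. The S phase list had a median of -0.02 over 27 genes, 12 of them above 0. A fit without the 18 cells holding markers of other cell types also lacked day 16 mouse 1. Its median was -0.34, with 1 of 27 above 0. Without day 16 mouse 1 alone the median was -0.19, with 4 of 28 above 0. With the share outside G1 as a covariate it was 0.17, with 20 of 27 above 0. No gene of the list was called in any of these fits. Its lowest p was that of Cdc45, a part of the replicative helicase, at 17.4 and 35.1 CPM on day 10 and at 62.2, 36.0, 64.6 and 72.5 later (log2 -0.86 ± 0.36). The day 16 value of 36.0 lay just above day 10. Cdc6, which loads that helicase, stood at -0.52 ± 0.33, Cdca7, a Myc target, at -0.71 ± 0.51, and Uhrf1, which maintains DNA methylation, at -0.48 ± 0.45 (log2).

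**Figure D4:**
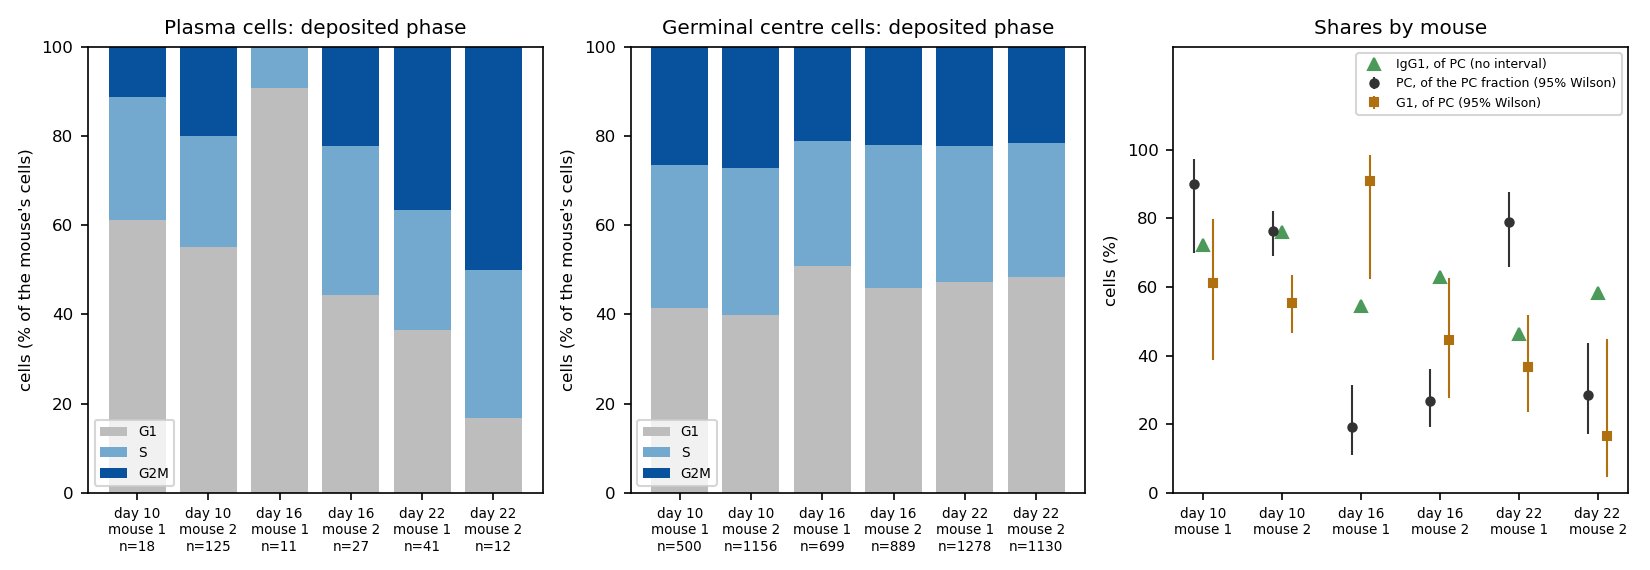
Left and middle, share of cells in each phase as the authors called it (stacked, % of the cells of a mouse) in plasma cells and germinal centre cells of each mouse; right, plasma cells as a share of their sorted fraction and G1 cells as a share of plasma cells with 95% Wilson intervals, and IgG1 cells as a share of plasma cells. Plasma cell phases run from 90.9% to 16.7% G1 among the later mice, whereas germinal centre cells hold 39.9% to 50.9% G1 in all mice.

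Of 13 tested genes of survival and cell death, 11 had a log2 difference above 0, against 48.5% of all genes, with a median of 0.20. Without overlap, 4 lay higher on day 10, against 4.35% of all genes, and 1 lower, against 3.46%, and 0 were called. Bcl2l11 (Bim), which promotes apoptosis by binding Bcl-2 family members, stood at 69.6 and 112 CPM on day 10, 31.1 and 38.2 on day 16, and 44.7 and 27.9 on day 22 (log2 1.35 ± 0.29, adjusted p 1.0 by edgeR). Its survival counterpart Mcl1, on which plasma cells are known to depend, stood at 139 and 133 CPM on day 10 and at 83.0, 93.3, 97.7 and 83.7 later (log2 0.56 ± 0.22). Both lay above all later mice in both day 10 mice. Birc2, an inhibitor of cell death, stood at 56.5 and 50.2 CPM on day 10 and between 31.1 and 50.2 later (0.39 ± 0.30). In the other direction Il21r, the receptor of the T helper cytokine IL-21, stood at 17.4 and 17.3 CPM on day 10, 83.0 and 31.8 on day 16, and 38.1 and 39.1 on day 22 (log2 -1.23 ± 0.42). Germinal centre cells held 159 to 174 CPM of it in all 6 mice. The receptor BCMA (Tnfrsf17), which binds the survival factor APRIL, had a log2 difference of 0.00.

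Identity and maturation genes were divided. The plasma cell identity list had a median of 0.04 over 21 genes, 13 of them above 0. Prdm1 had its lowest p, at 34.8 and 46.4 CPM on day 10 and at 135, 82.7, 48.0 and 94.8 later (log2 -0.86 ± 0.36). The periods did not overlap, but day 22 mouse 1 lay next to the day 10 mice. Irf4 stood at 239 and 196 CPM on day 10 and at 249, 163, 180 and 123 later (log2 0.30 ± 0.25). Eaf2, an elongation factor partner, had a log2 difference of 0.38 ± 0.19, and the disulphide isomerase Txndc5 0.23 ± 0.21. The 48 genes of endoplasmic reticulum translocation, folding and export had a median of 0.01, with 0 at an unadjusted p under 0.05. Their lowest p values were those of the disulphide isomerase P4hb (0.42 ± 0.20), the signal peptidase subunit Sec11a (0.19 ± 0.19), the COPII coat protein Sec31a (0.31 ± 0.28) and the folding enzyme Fkbp2 (0.22 ± 0.23). Immunoglobulin made up 24.4% and 22.5% of UMIs on day 10 and 16.8% to 28.4% later.

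In the maturation and longevity list, with a median of 0.06 over 21 genes, 2 genes lay higher on day 10 at an unadjusted p under 0.05, against 1.21% of all genes, and 1 lower, against 0.655%. Tigit, an inhibitory receptor better known from T cells, stood at 60.9 and 50.2 CPM on day 10, 0 and 10.6 on day 16, and 24.8 and 27.9 on day 22 (log2 1.54 ± 0.44). Of the T cell receptor complex, Cd3d and Cd3e were at 0 in all members and Cd3g had 10 UMIs, and 44 of 125 cells of day 10 mouse 2 held a Tigit UMI. Cd93, a surface receptor needed for long-lived plasma cells, stood at 117 and 45.4 CPM on day 10 and at 41.5, 25.4, 39.7 and 11.2 later (1.15 ± 0.46). In germinal centre cells it was called higher on day 10 (2.33 ± 0.41, adjusted p 0.00286 by edgeR). Its level there was low, at 1.89 and 2.41 CPM on day 10 and 0.287 to 0.638 later. Itgb1, the integrin beta 1 chain, stood at 43.5 and 54.5 CPM on day 10 and at 62.2, 78.4, 87.7 and 83.7 later (-0.65 ± 0.26), and was called lower on day 10 in germinal centre cells (-0.42 ± 0.08, adjusted p 0.00563). Ly6a (Sca-1) overlapped between the periods (0.50 ± 0.34). Of the migration genes, Itgal (LFA-1 alpha chain, 0.58 ± 0.40) and the mucosal homing receptor Ccr10 (0.36 ± 0.41) overlapped as well, and the list's median was 0.05 over 18 genes.

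For antigen presentation by class I and peptide loading, 16 of 18 genes had a log2 difference above 0 (median 0.25, against 48.5% of all genes above 0), 4 lay higher on day 10 without overlap, against 4.35% of all genes, and 0 were called. Without day 10 mouse 2 it was 10 of 18 with a median of 0.07. The non-classical molecule H2-T23 stood at 387 and 366 CPM on day 10 and at 384, 157, 268 and 223 later (0.62 ± 0.27). H2-T22 had a log2 difference of 0.49 ± 0.27, the classical molecule H2-K1 0.29 ± 0.17 and the immunoproteasome subunit Psmb10 0.31 ± 0.21. H2 genes are close relatives of each other, and reads could be split between them in counting. Of 9 class II genes, 1 had a log2 difference above 0 (median -0.35). The class II sum was 11446 and 10572 CPM on day 10, 23911 and 10626 on day 16, and 8337 and 15831 on day 22. Its highest value was that of day 16 mouse 1, the mouse with the highest myeloid marker sum. A fit without the 18 cells holding markers of other cell types also lacked this mouse. There 7 of 9 genes lay above 0 with a median of 0.18. Without day 16 mouse 1 the median was -0.03, and against day 22 alone it was 0.01, with 5 of 8 above 0.

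**Figure D5:**
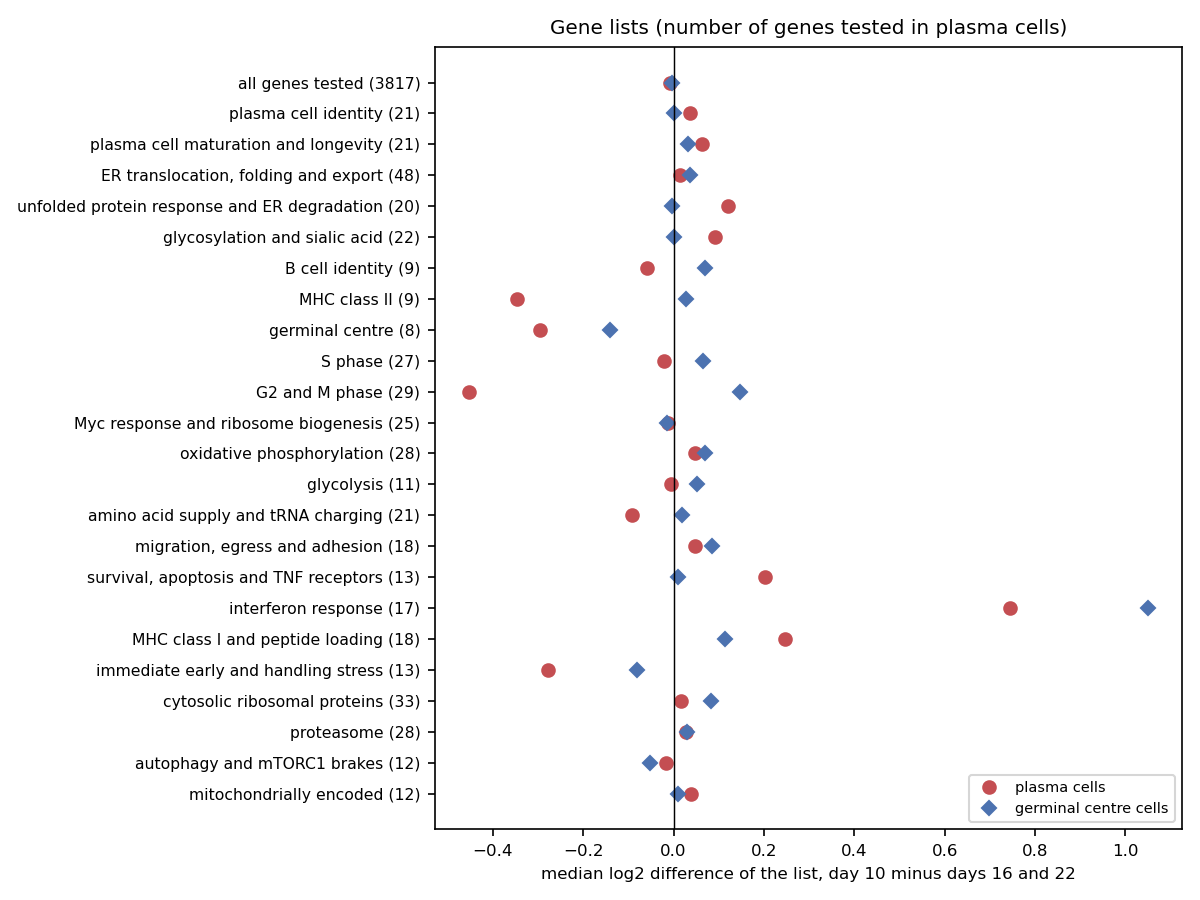
Median log2 difference, day 10 minus days 16 and 22 (x axis), of each gene list with at least 5 genes tested in plasma cells (y axis, number of genes tested in plasma cells in brackets), red circles for plasma cells and blue diamonds for germinal centre cells. The interferon response lies farthest above 0 in both populations (0.75 and 1.05), and of the lists drawn the G2 and M phase list lies lowest in plasma cells (-0.45) but above 0 in germinal centre cells (0.15).

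No gene of the remaining lists was called. Unfolded protein response and degradation genes had a median of 0.12 over 20 genes, glycosylation 0.09 over 22, oxidative phosphorylation 0.05 over 28, proteasome 0.03 over 28, cytosolic ribosomal proteins 0.02 over 33, and Myc response and ribosome biogenesis -0.01 over 25. Amino acid supply and transfer RNA charging had -0.09 over 21. B cell identity (-0.06 over 9) and germinal centre genes (-0.30 over 8) were mostly too low in plasma cells to test. Immediate early and handling stress genes, which respond to dissociation, had 1 of 13 above 0 and a median of -0.28. None of these lists had more than 1 gene at an unadjusted p under 0.05.

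Further genes with low p on day 10 were of mixed function. Tmem176b, a membrane protein, stood at 283 and 314 CPM on day 10 and at 156, 178, 137 and 206 later (0.85 ± 0.21). Lgals9 (galectin-9, a secreted sugar-binding protein) stood at 73.9 and 81.6 CPM on day 10, 41.5 and 40.3 on day 16, and 34.8 and 5.58 on day 22 (1.28 ± 0.37). In germinal centre cells Lgals9 was called higher on day 10 (2.24 ± 0.10, adjusted p 1.2e-09). Mxd4, a Myc antagonist, stood at 82.6 and 85.9 CPM on day 10 and at 83.0, 21.2, 28.1 and 55.8 later (1.23 ± 0.39), so that day 16 mouse 1 matched day 10. Yam1, for which the annotation used here holds no position, stood at 7578 and 7668 CPM on day 10 and at 6068, 3714, 4774 and 3258 later (0.78 ± 0.20). In day 10 mouse 2, 1 cell held 3897 of its 14198 UMIs, and without the highest cells the log2 difference was 0.46.

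Of the named genes higher later, Rpf2, a ribosome assembly factor, stood at 13.0 and 25.4 CPM on day 10 and at 51.9, 65.7, 36.4 and 66.9 later (log2 -1.22 ± 0.37). Ckap5, a microtubule polymerase of the spindle, stood at 17.4 and 26.5 CPM on day 10 and at 51.9, 40.3, 53.0 and 61.4 later (-1.02 ± 0.33). The histone gene Hist2h2ac stood at 8.70 and 49.1 CPM on day 10, 62.2 and 59.3 on day 16, and 111 and 139 on day 22 (-1.26 ± 0.44). In these 3 genes no later mouse reached down to day 10. The catalytic subunit of a major serine and threonine phosphatase, Ppp2ca (-0.82 ± 0.29), the nuclear matrix protein Safb (-0.78 ± 0.29) and the tautomerase Ddt (-0.64 ± 0.24) did not overlap either, and the polyamine enzyme Sat1 did (-0.81 ± 0.30).

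In Il4i1 and Apoe, both higher later, a few cells held the RNA. Il4i1 (chr7:44816387-44840809), a secreted amino acid oxidase, stood at 8.70 and 11.9 CPM on day 10, 51.9 and 93.3 on day 16, and 26.5 and 418 on day 22 (log2 -3.53 ± 1.00, adjusted p 1.0 by edgeR). All 75 UMIs of day 22 mouse 2 came from 1 cell, all 16 of day 22 mouse 1 from 1 cell, and 42 of 44 in day 16 mouse 2 from 1 cell. After thinning, 6.19% of the plasma cells and 30.4% of the germinal centre cells of the same well had an Il4i1 UMI (median depths before thinning 18560 and 8186 UMIs, with 24 and 87 shallower cells left out). Apoe (chr7:19696109-19699188), the lipid carrier that macrophages make in large amounts, stood at 30.4 and 183 CPM on day 10, 1462 and 500 on day 16, and 262 and 128 on day 22 (-2.07 ± 0.78). A UMI of Apoe was found in 10.0% of the plasma cells and 27.5% of the germinal centre cells of the well after thinning, and day 16 mouse 1, with the highest Apoe, also had the highest myeloid marker sum. A fit without the 18 cells with markers of other types also lacked day 16 mouse 1. It gave -2.8 for Il4i1 (adjusted p 0.367 by edgeR) and -2.67 for Apoe (adjusted p 0.00295). With the highest cell of each mouse left out, Apoe had -1.76 ± 1.22 and was not called.

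Whether plasma cells changed otherwise than germinal centre cells of the same mice was tested in 1 fit over both, with the mouse as a block. Of 9802 genes 11 were called (0.112%), 5 with a more positive (0.051%) and 6 with a more negative (0.0612%) early-late difference in plasma cells, and 334 had an unadjusted p under 0.05 (3.41%). Without the block 2 were called, Sdc4 and Rdx. Leaving out day 16 mouse 1 gave 25 calls and day 16 mouse 2 gave 18, whereas leaving out day 10 mouse 2 gave 6 and day 22 mouse 1 gave 7. This fit shared its spread between populations (biological coefficient of variation 0.131, against 0.191 in plasma cells and 0.0499 in germinal centre cells fitted alone), so its p-values give the small plasma cell sums more weight than their own spread would.

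A first set of these genes was high in germinal centre cells on day 10 and did not show this in plasma cells. Sdc4 (syndecan-4, a heparan sulphate proteoglycan) stood at 22.8 and 26.6 CPM on day 10 in germinal centre cells and at 3.59 to 6.69 later (log2 2.41 ± 0.17). In plasma cells it stood at 113 and 88.0 CPM on day 10 and at 124, 102, 54.6 and 89.3 later (0.18 ± 0.31), and the difference between both was -2.16 ± 0.35 (adjusted p 1.83e-06 by edgeR). Rdx (radixin, which ties actin to the membrane) had 2.05 ± 0.27 in germinal centre cells and -0.34 ± 0.37 in plasma cells, a difference of -2.27 ± 0.44 (adjusted p 3.09e-04). Uchl1, a deubiquitinase of germinal centre B cells, had 2.09 ± 0.20 and -0.47 ± 0.56, a difference of -2.29 ± 0.50 (adjusted p 0.0048).

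Yam1 differed by 0.99 ± 0.17 (adjusted p 1.03e-05), with UMIs in all plasma cells and 2120 to 2470 CPM in germinal centre cells of the 6 mice (log2 -0.10 ± 0.05 there). The called genes not yet described had few UMIs, few cells with most of them, or a low level in germinal centre cells. Ly6k, a Ly6 family surface protein, had 52 UMIs in 11 of the 143 day 10 plasma cells and 0 UMIs in 91 later cells. Over these cells of 4 mice this allows up to 3.30% with a UMI by counting error only, and 27.3% in day 16 mouse 1 alone, which does not limit the cells expressing the gene. With the counts of each period pooled, its level was at least 10.9-fold higher on day 10 by counting error only (floor of 3 counts over the later mice). By mouse it stood at 31.0 and 26.7 CPM on day 10. The floor of 3 counts ran from 4.86 CPM in day 22 mouse 1 to 27.4 in day 16 mouse 1, so this bound does not hold for each mouse. In day 10 mouse 1 all 7 UMIs came from 1 cell, and in day 10 mouse 2 1 cell held 18 of 45. In germinal centre cells it stood at 1.13 and 3.03 CPM on day 10 and at 1.82 to 20.1 later. Ly6c2, a surface protein of the same family, overlapped between the periods (1501 and 1618 CPM against 405 to 2231), and it was too low in germinal centre cells for a test of its own. Tmed6, a cargo receptor of the secretory pathway, had 17 of 18 UMIs in 1 cell of day 10 mouse 1 and 17 of 22 in 1 cell of day 10 mouse 2. The differences of Il4i1, Apoe and Apoc2, a lipoprotein cofactor with 40 of its 46 UMIs of day 16 mouse 1 in 1 cell, rest on the few cells given above. S100a6, a calcium-binding protein outside the rule for named genes and singled out after its values were seen, had at most 18.8 CPM in plasma cells (4.04 ± 0.97, adjusted p 0.0267), with 16 UMIs in day 10 mouse 2 and 0 in day 10 mouse 1. Without day 10 mouse 2 its sign turned (-5.12, not called). Rgs10, a brake on G protein signalling, was not called (1.22 ± 0.31, adjusted p 0.0665), nor was Mxd4 (1.39 ± 0.38, adjusted p 0.118).

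No gene was called between any pair of days in the fit over all 3. Between days 16 and 22, 0 of 3817 genes were called by edgeR (0.0%) and 183 had an unadjusted p under 0.05 (4.79%). Day 16 against day 10 gave 0 called and 97 at that level (2.54%), and day 22 against day 10 gave 0 called and 105 (2.75%). These comparisons share mice. Fitted on its own pair of days, each comparison with day 10 called 1 gene: Isg15 for day 16 (log2 3.46 ± 0.40 for day 10 minus day 16, adjusted p 0.0417) and Plac8 for day 22.

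The antibody class of a cell was taken from the counts, as the heavy chain constant gene with the most UMIs in that cell. A cell counted as lambda where its lambda constant genes had more UMIs than Igkc, the kappa constant gene. IgG1 cells made up 72.2% and 76.0% of plasma cells on day 10, 54.5% and 63.0% on day 16, and 46.3% and 58.3% on day 22. No later mouse reached day 10, with 74.1% ± 2.67 (SD, n = 2) against 55.5% ± 7.04 (SD, n = 4). The exact permutation p was 0.0667, the smallest possible, and 0.467 adjusted over 7 readouts. IgG2b and IgG2c together made up 5.56% and 8.00% on day 10, 18.2% and 18.5% on day 16, and 39.0% and 25% on day 22, a sum formed after the values were seen and not tested. IgE was called in 4 of 143 cells on day 10 and in 0 of 91 later, which allows a called share of up to 3.30% over the 4 mice by counting error only. IgM cells (12.8% to 27.3%) and lambda light chain cells (14.6% to 44.4%) overlapped between the periods, with exact permutation p values of 0.467 each. So did the median UMIs per cell, at 17220 and 18400 on day 10 and 14220 to 21560 later, the median genes per cell (2198 to 2999 over all mice) and the mitochondrial share (1.00% to 1.17%).

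The share of members in their sorted fraction was higher in both day 10 mice than in 3 of the 4 later mice. It was 90.0% (18 of 20) and 76.2% (125 of 164) on day 10, 19.3% and 26.7% on day 16, and 78.8% and 28.6% on day 22. Day 22 mouse 1 lay within the range of day 10. The mean was 83.1% ± 9.74 (SD, n = 2) against 38.4% ± 27.3 (SD, n = 4), with an exact permutation p of 0.2. The rest of the fraction held cells of other named states, so this share describes the sort as well as the node.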

How the data were processed

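The deposited matrix holds raw UMI counts per gene and cell, and the deposited cell table a module score per cell, phase, state, day and mouse. Per the labels, libraries were 10x Genomics 5' v2. Per the submitters' processing notes, Cell Ranger and Seurat were used with mm10/GRCm38. Rules for states and phases and the treatment of doublets were not given in the sources used here, and no cell was removed.

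Counts of the PC well were summed per mouse (at least 10 cells a sum, immunoglobulin genes left out) and tested with edgeR 4.0.16 (TMM, filterByExpr, quasi-likelihood F test) in R 4.3.3, with Benjamini-Hochberg adjustment across every tested gene and calls at 0.05. DESeq2 1.42.0 was an alternative. The fits were tested on simulated data. The mouse block pairs sums of the same animal. Shares per mouse were tested by exact permutation, 2-sided. Positions and names came from GENCODE M21. Intervals and floors (3 counts) cover counting error only. Fewer cells of a kind and less RNA per cell cannot be told apart in sums.

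Named genes were the 10 with the lowest p in each direction (mean CPM of at least 20 in the higher period, no immunoglobulin, predicted or mitochondrial genes), at most 4 by p from each described list, and 6 in each direction for the difference from germinal centre cells. The members and lists were chosen with earlier results of these data known. Alternatives were scaling, low-count filter, immunoglobulin genes, depth, phase, well, days, marker cells and single mice, and 2 were added after the data were seen: germinal centre sums thinned to plasma cell totals, and the highest cell of each mouse left out for each gene. A few items within the rule are not reported here.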

Additional observations from a re-analysis of the deposited data

Results flagged for a closer look

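Among the 4 later mice 3 values stood apart from the other 3 mice by Dixon's test: Il4i1 at 418 CPM in day 22 mouse 2, Il21r at 83.0 CPM in day 16 mouse 1, and the share of plasma cells in their sorted fraction at 78.8% in day 22 mouse 1. Of 31 groups tested, chance flags about 1 in 20. The Il4i1 value came from 1 cell with 75 UMIs, while the Il21r value came from 8 UMIs in 6 of 11 cells.

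For 11 genes the early-late difference was not the same in plasma cells and in germinal centre cells of the same mice by the test of the difference itself. The log2 difference between both was 0.99 for Yam1, 12.34 for Ly6k, 5.52 for Ly6c2, 3.97 for Tmed6 and 4.04 for S100a6, more positive in plasma cells. It was -2.91 for Il4i1, -1.65 for Apoe, -2.16 for Sdc4, -2.27 for Rdx, -2.23 for Apoc2 and -2.29 for Uchl1. The fitted value of Ly6k depends on the prior count, since the later plasma cells had 0 UMIs, and is no bound. Of 12 alternatives, Sdc4 and Ly6k were called in 11, Rdx, Il4i1, Apoe and Yam1 in 9, Tmed6, Apoc2 and Uchl1 in 7 and Ly6c2 and S100a6 in 6.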

How the results depend on the processing

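Of the plasma cell alternatives, those that called genes gave 13 (no filter on low counts), 5 (immunoglobulin genes kept, all 5 of them variable region genes), 3 (without cells holding markers of other types: Ifi27l2a, Yam1 and Apoe), 2 (highest cells left out) and 1 each (DESeq2's test, thinned cells, G1 cells only, day 16 only, day 22 only). Leaving out 1 mouse gave 0 to 1, the 1 being Plac8 without day 16 mouse 1. The fits with thinned cells and without marker cells also lacked day 16 mouse 1, which fell below 10 cells in both. Each comparison of day 10 with a single day called 1 gene when its pair of days was fitted alone. In germinal centre cells the count of 367 became 216 with DESeq2's test, 142 with immunoglobulin genes kept, 651 without the filter and 38 with thinned sums, and leaving out 1 mouse gave 105 (without day 10 mouse 2) to 482. The difference between both populations gave 11 with the mouse as a block and 2 with no replicate block, and 6 to 25 with 1 mouse left out (25 without day 16 mouse 1, of which 10 were among the 11). The limit of at least 20 cells a sum could not be applied to plasma cells, as it leaves 1 day 10 mouse.

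None of the named genes with the lowest p changed direction in an alternative. Reversed were Sec31a with G1 cells only (-0.48), Uhrf1 with the share outside G1 as a covariate (0.04), Cenpe against day 16 only (0.02), Birc2 with thinned cells (-0.09) and H2-T22 without day 10 mouse 2 (-0.06, with 0.78 the highest value when 1 mouse was left out). The difference between both populations for S100a6 ran from -5.12 (without day 10 mouse 2) to 4.94 with 1 mouse left out. Readouts (day 10 minus later) that changed sign were the G1 share by the UMI criterion (-1.19 points), the S share with both wells (-1.12) and, each over the range with 1 mouse left out, the S share (-4.87 to 3.21), median UMIs (-2220 to 227), median genes (-249 to 46.2), the immunoglobulin share (-3.20 to 0.663), the mitochondrial share (-0.0025 to 0.0542) and the lambda share (-4.81 to 21.2). The interferon list's median in plasma cells ran from 0.476 to 1.25 over 19 alternatives, and that of the G2 and M list from -0.811 to 0.319. The 0.319 came from G1 cells only, where 3 genes of the list were tested, against 29 in the main fit. That fit left out day 22 mouse 2, which had 2 G1 cells.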
